A study of Mus musculus with 8 samples.

Results

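The step from 16 h to 20 h after serum was described from 2 of the 8 small-RNA libraries of a study of NIH-3T3, a line of fibroblasts derived from mouse embryos. The cells had been grown in 10% serum and serum-starved for 48 h, and 20% serum was given back. The library collected 16 h later carries the phase label S, and the one collected 20 h later carries G2/M. The other serum libraries were collected at 0 h (labelled G0), 12 h (G1) and 24 h (G1), and 3 further libraries came from a contact-inhibition experiment. Each time has 1 library, so no spread between cultures could be estimated and no p-value is given. The members compared here are mature miRNA arms, the 5p or 3p products of a hairpin. Of 1735 mouse arms counted, 1188 had no read at 16 h or 20 h, 332 were read but had fewer than 100 reads in both libraries, and 215 had 100 or more reads in at least 1 of the libraries and were compared.

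Small RNAs of this class are cut from hairpin precursors, which often lie side by side in a single transcript. One arm of the hairpin is usually kept by an Argonaute protein and guides it to messenger RNAs that pair with the seed near the arm's 5′ end, and the other arm is mostly lost. In fibroblasts leaving serum starvation, the miR-17 to miR-92a cluster is known as a target of MYC and E2F, the miR-34 genes as targets of p53, and let-7 as a brake on growth genes such as those of the RAS family.

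The sequences below are those on which the comparison turns, written 5′ to 3′ with the seed, bases 2 to 8, in capitals. They come from RefSeq (mouse build GRCm38.p6), which held 187 of the 215 arms. The first set is the miR-17 to miR-92a cluster and its relatives on another chromosome, shown because arms of a single transcript had unlike ratios.
miR-17-5p: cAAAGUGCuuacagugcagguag
miR-20a-5p: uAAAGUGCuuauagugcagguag
miR-93-5p: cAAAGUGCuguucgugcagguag
miR-106b-5p: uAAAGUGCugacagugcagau
miR-19a-3p: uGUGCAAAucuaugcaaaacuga
miR-19b-3p: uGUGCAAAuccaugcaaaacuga
miR-92a-3p: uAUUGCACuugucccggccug
miR-25-3p: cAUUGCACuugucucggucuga
The second set holds both arms of 4 hairpins whose arms moved apart.
let-7d-5p: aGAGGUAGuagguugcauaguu
let-7d-3p: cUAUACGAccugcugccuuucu
miR-34b-5p: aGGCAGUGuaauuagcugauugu
miR-34b-3p: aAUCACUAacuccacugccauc
miR-574-5p: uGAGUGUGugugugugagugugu
miR-574-3p: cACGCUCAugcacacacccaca
miR-369-5p: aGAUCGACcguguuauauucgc
miR-369-3p: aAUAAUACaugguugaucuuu
The third set holds the arms furthest above 1 in the ratio of 20 h to 16 h, with the 3 arms of the miR-125 seed.
miR-484: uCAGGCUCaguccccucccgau
miR-331-3p: gCCCCUGGgccuauccuagaa
miR-296-5p: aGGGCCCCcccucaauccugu
miR-324-3p: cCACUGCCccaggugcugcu
miR-667-3p: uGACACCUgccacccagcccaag
miR-193b-3p: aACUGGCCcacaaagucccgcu
miR-744-5p: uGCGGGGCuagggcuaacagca
miR-351-5p: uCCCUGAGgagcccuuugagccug
miR-125b-5p: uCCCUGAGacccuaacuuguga
miR-125a-5p: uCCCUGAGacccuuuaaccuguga
The fourth set holds arms far below 1.
miR-33-5p: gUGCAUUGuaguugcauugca
miR-322-3p: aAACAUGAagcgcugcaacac
miR-542-3p: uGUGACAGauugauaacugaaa
miR-9-5p: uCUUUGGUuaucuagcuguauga
miR-30c-2-3p: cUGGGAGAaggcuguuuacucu

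The 2 libraries were unequal in depth. Total reads were 7071603 at 16 h and 7087714 at 20 h, but 78.38% (95% exact binomial interval 78.35% to 78.41%) and 94.04% (94.02% to 94.06%) of them came from 2 sequences taken here to be size-marker oligonucleotides. That left 889231 miRNA reads at 16 h and 183239 at 20 h, 4.85 times fewer, against 136973 to 889231 over all 8 libraries. Levels are given as CPM, miRNA reads scaled to a common total with TMM factors, and ratios are 20 h over 16 h with a 95% exact interval in parentheses. The reads carry no molecular identifiers, so every interval covers counting error only. No compared arm had under 100 reads at 16 h and 90 had under 100 at 20 h, so the minimum admitted arms through the deeper 16 h library. The miRNA markers of fibroblasts were present: 12 of 13 arms of miR-199a, miR-199b, miR-214, miR-143, miR-145a, miR-22 and miR-152 were compared, and they summed to 176073 CPM at 16 h and 116118 CPM at 20 h. Among markers of other cells, 2 of 12 epithelial arms were seen (13 reads at 16 h and 12 at 20 h), 1 of 8 blood arms (2 and 0), 4 of 18 pluripotent or germ line arms (2 and 11) and 2 of 2 endothelial arms (19 and 0). The neural list had 934 and 136 reads, mostly of miR-9-5p and miR-128-3p, and the muscle list 224 and 40, mostly of miR-206-3p at 16 h.

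The arm with the highest ratio was miR-484, and those with the lowest were miR-33-5p and an arm shared by miR-467a and miR-467d. An arm was called when its ratio was at least 2-fold and its interval excluded 1. By that rule 60 of 215 arms (27.9%) were called, 22 of them higher at 20 h (10.2%) and 38 lower (17.7%). An arm admitted through the 16 h library alone had fewer reads at 20 h by that choice, and among the 125 arms with 100 or more reads in both libraries 20 were called higher and 12 lower. The median log2 ratio over all 215 arms was −0.31, with quartiles at −0.81 and 0.34, and 76 arms had a ratio above 1. At 1.5-fold in place of 2-fold, 122 of the 215 arms (56.7%) were called. With reads scaled to the miRNA total instead of TMM, the median log2 ratio moved up by 0.19, and 28 arms were called higher and 26 lower. The 22 higher arms took 1.80% (1.77% to 1.83%) of miRNA reads at 16 h and 6.11% (6.0% to 6.2%) at 20 h. The 38 lower arms took 5.72% (5.67% to 5.77%) and 2.82% (2.75% to 2.90%). In bulk RNA, fewer cells that make an arm and less of it per cell cannot be told apart.

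**Figure D1:**
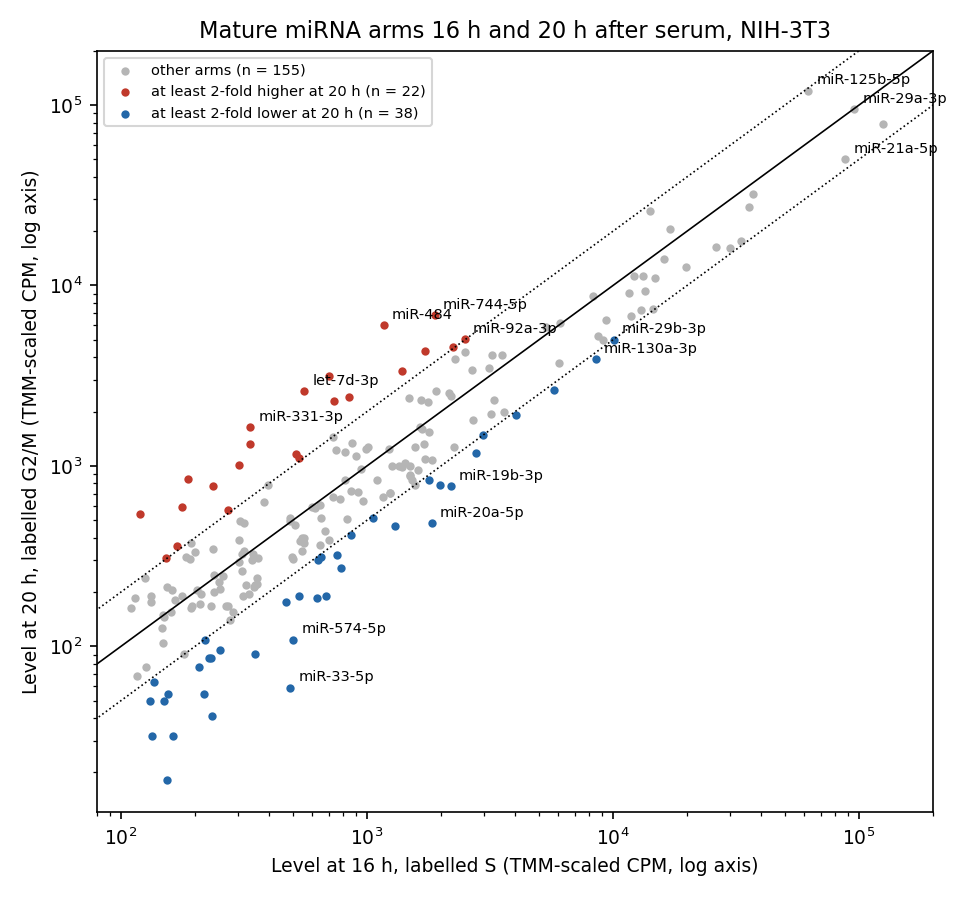
Level of each of the 215 compared arms at 16 h (x axis) and at 20 h (y axis), in TMM-scaled CPM on log axes, 1 library per time; the solid line marks equal levels and the dotted lines a 2-fold difference. The 22 arms called higher (red) lie above the upper dotted line and the 38 called lower (blue) below the other, while miR-29a-3p sits on the line of equal levels.

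The 10 arms of highest level were not called. The shared 3p arm of miR-199a and miR-199b, a fibroblast marker, went from 125569 to 78752 CPM, a ratio of 0.627 (0.617 to 0.637). miR-29a-3p, known for its collagen targets, was at 95861 and 94806 CPM, with a ratio of 0.989 (0.974 to 1.004). miR-21a-5p, which is induced by growth factors, went from 88059 to 50381 CPM, 0.572 (0.561 to 0.584). These 3 were level or lower at 20 h. miR-125b-5p went the other way, from 62028 to 120283 CPM, and became the most abundant arm at 20 h with a ratio of 1.94 (1.91 to 1.97), just short of 2-fold. Its relative miR-125a-5p moved by nearly as much, from 14083 to 25826 CPM (1.83, 1.78 to 1.89). With reads scaled to the miRNA total, miR-125b-5p came to 2.21 and miR-125a-5p to 2.09, so that both passed 2-fold. The rest of the 10 most abundant arms were lower at 20 h, with miR-24-3p at 0.861, miR-26a-5p at 0.763, let-7a-5p at 0.629, let-7f-5p at 0.545 and let-7c-5p at 0.535.

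Among the arms called higher, miR-484, whose precursor is known to form without the nuclear enzyme Drosha, was read 1096 times at 16 h and 1323 times at 20 h although the second library was the shallower. Its level went from 1167 to 6002 CPM, a ratio of 5.14 (4.74 to 5.58). miR-484 lies at chr16:14159630-14159651 (+) in no annotated gene. miR-331-3p, at chr10:93963783-93963803 (-) within an exon of Vezt in GENCODE M21, went from 314 reads to 360 and from 334 to 1633 CPM, 4.88 (4.19 to 5.70). let-7d-3p, at chr13:48536024-48536045 (-) in the long noncoding RNA 6720427I07Rik, went from 520 reads to 571 and from 554 to 2590 CPM, 4.68 (4.15 to 5.28). All of these had more reads in the library with 4.85 times fewer miRNA reads. miR-667-3p, at chr12:109720061-109720083 (+) in the imprinted Dlk1-Dio3 region, went from 698 to 3148 CPM, 4.51 (4.05 to 5.03). miR-744-5p, at chr11:65734799-65734820 (-) in an intron of the kinase gene Map2k4, had the highest level of the called arms at 20 h and went from 1883 to 6818 CPM, 3.62 (3.38 to 3.88).

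The other named higher arms had ratios between 3.12 and 4.55. They were miR-296-5p at 4.55 (186 to 848 CPM), miR-324-3p at 4.53 (119 to 540 CPM), miR-193b-3p at 3.93 (334 to 1316 CPM) and miR-485-3p at 3.34 (177 to 590 CPM). With them stood miR-369-5p at 3.33, miR-423-3p at 3.26 and miR-433-3p at 3.12. The hairpin of miR-423, in an intron of Nsrp1, gave both arms to the higher group, with miR-423-5p at 2.87. The remaining higher arms were miR-342-3p at 2.54, miR-351-5p at 2.40, miR-151-3p at 2.27, miR-501-3p at 2.12, miR-409-3p at 2.11, miR-34b-3p at 2.09, miR-365-3p at 2.05, and miR-92a-3p and miR-328-3p at 2.03. Just outside the threshold were miR-434-3p at 1.98 and miR-125b-5p.

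Among the arms called lower, miR-33-5p, which lies at chr15:82198127-82198147 (+) in an intron of the sterol regulator gene Srebf2 and targets cholesterol transport genes, went from 456 reads to 13. Its level went from 486 to 59.0 CPM, a ratio of 0.121 (0.0642 to 0.210). The arm shared by miR-467a-3p and miR-467d-3p went from 153 to 18.1 CPM, 0.118 (0.0318 to 0.310), on 4 reads at 20 h. Its copies, like those of miR-466d-3p at 0.174 (220 reads to 9), lie in a repeated array in an intron of Sfmbt2 and cannot be assigned to 1 hairpin. miR-322-3p, at chrX:53054269-53054289 (-), went from 153 reads to 7, 0.195 (0.0771 to 0.411). miR-574-5p, a UG repeat at chr5:64970328-64970350 (+) in an intron of Fam114a1, went from 470 reads to 24 and from 501 to 109 CPM, 0.218 (0.138 to 0.328). These 5 rest on 24 or fewer reads at 20 h, and their intervals are wide. miR-542-3p, at 0.251 (0.127 to 0.447), had 12 reads at 20 h.

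Lower arms with more reads at 20 h included miR-20a-5p, which went from 1721 reads to 106 and from 1833 to 481 CPM, 0.262 (0.214 to 0.319), and miR-19b-3p, which went from 2188 to 771 CPM, 0.353 (0.300 to 0.412). miR-93-5p went from 1296 to 467 CPM, 0.360 (0.292 to 0.441). The neural-enriched miR-9-5p went from 624 to 186 CPM, 0.298 (0.212 to 0.409). The most abundant arms called lower were miR-29b-3p, from 10069 to 5013 CPM (0.498, 0.467 to 0.530), and miR-130a-3p, from 8504 to 3897 CPM (0.458, 0.427 to 0.492). Both lost their call with reads scaled to the miRNA total and with a straight-line trend on GC content removed. miR-191-5p went from 2784 to 1175 CPM, 0.422. Further arms, miR-340-5p at 0.360, miR-301a-3p at 0.395, miR-101a-3p at 0.427, miR-28a-3p at 0.480 and the arm shared by miR-378a-3p and miR-378c at 0.487 were called as well. Arms called lower on fewer than 25 reads at 20 h also included miR-145a-3p at 0.332, miR-32-5p at 0.350, the arm shared by miR-466 copies at 0.376 and miR-467c-5p at 0.466. Next to the threshold, miR-98-5p at 0.499 was inside and miR-30b-5p at 0.501 and let-7i-5p at 0.507 were outside.

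The miR-17 to miR-92a hairpins lie at chr14:115043671-115044506 (+) and are cut from the RNA Mir17hg, yet their arms did not keep a common ratio. Of the 6 arms compared, miR-19a-3p stood at 0.258, miR-20a-5p at 0.262, miR-19b-3p at 0.353, miR-17-5p at 0.475 and miR-18a-5p at 0.643, whereas miR-92a-3p stood at 2.03 (1.88 to 2.18). miR-17-5p went from 4031 to 1914 CPM while miR-92a-3p went from 2492 to 5049 CPM. So the last hairpin of the transcript was the highest of the 6 at 20 h and miR-17-5p had been the highest at 16 h. A second copy of the miR-19b and miR-92a hairpins exists elsewhere, and their reads cannot be divided between the copies. The related hairpins inside the replication gene Mcm7 on chr5 also differed, with miR-93-5p at 0.360, miR-106b-5p at 0.562 and miR-25-3p at 1.01 (0.868 to 1.18). Over both clusters and their paralogs, 9 of 26 arms were compared, 1 was called higher and 5 lower, against 10.2% and 17.7% of all 215 arms, and the median log2 ratio was −1.07 against −0.31.

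Read by seed, the arms of some seeds all lay below 1, as did most of the 215 arms, of which 76 had a ratio above 1. Over all 215 arms, 10.2% were called higher and 17.7% lower. The seed AAAGUGC, in miR-17-5p, miR-20a-5p, miR-93-5p and miR-106b-5p, had ratios from 0.262 to 0.562, and the seed GUGCAAA, in both miR-19 arms, from 0.258 to 0.353. The seed AUUGCAC did not hold together, with miR-92a-3p at 2.03, miR-25-3p at 1.01 and miR-32-5p, which is cut from another locus, at 0.350. The 3 arms with AGUGCAA (miR-130a-3p, miR-130b-3p and miR-301a-3p) lay between 0.395 and 0.508, and 2 of them were called lower. With a straight-line trend on GC content removed, miR-130a-3p came to 0.556 and miR-301a-3p to 0.514, and neither was called. With reads scaled to the miRNA total, miR-130a-3p came to 0.522 and lost its call, while miR-301a-3p kept it at 0.450. The 3 arms with CCCUGAG had ratios above 1, with miR-125a-5p at 1.83, miR-125b-5p at 1.94 and miR-351-5p at 2.40. Of these miR-351-5p alone was called, and it came to 1.24 with a straight-line trend on GC content removed. miR-125a-5p is cut from a hairpin on chr17 and miR-351-5p from one on chrX, while miR-125b-5p has 2 hairpins that its reads cannot be divided between.

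**Figure D2:**
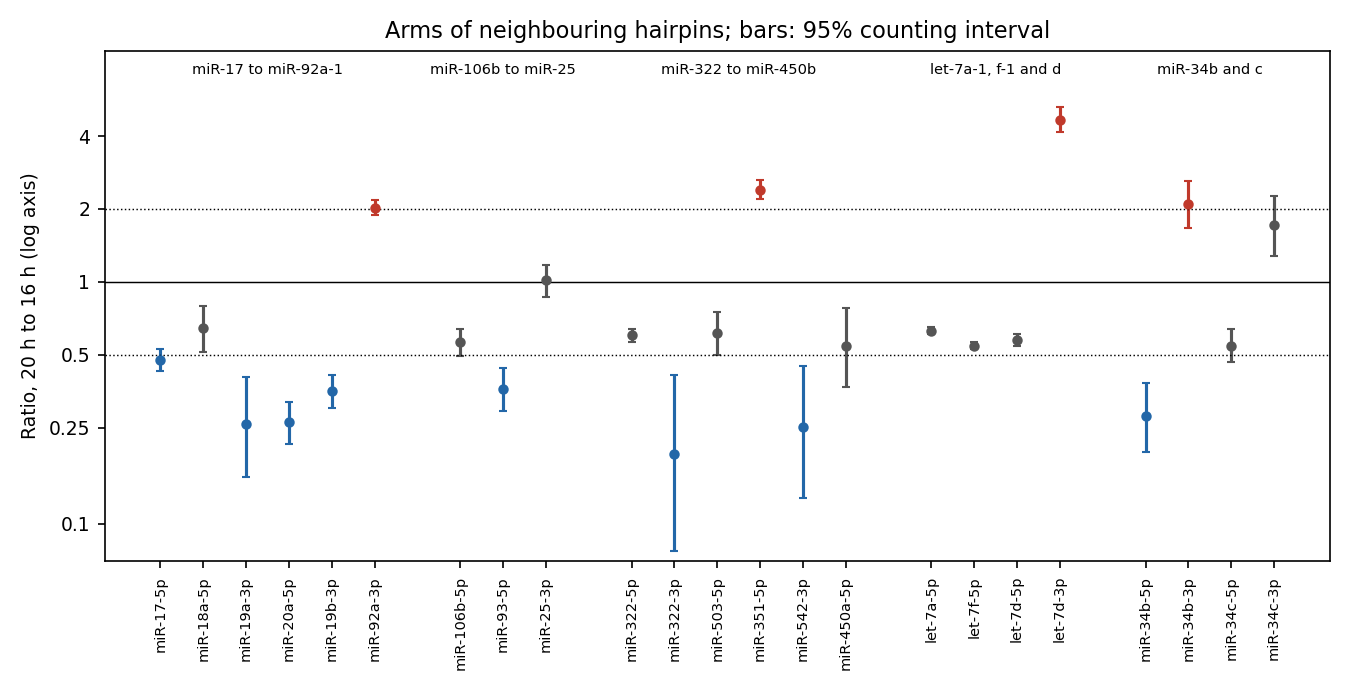
Ratio of 20 h to 16 h (log axis) for arms of 5 groups of neighbouring hairpins; points are ratios of TMM-scaled CPM, bars are 95% counting intervals, and dotted lines mark 2-fold. In each group except miR-106b to miR-25, 1 arm is called higher while others lie below 1, as miR-92a-3p at 2.03 beside miR-20a-5p at 0.262.

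Other clusters were mixed to unlike degrees. On chrX, 6 arms of the miR-322 and miR-503 group were compared, and miR-322-3p and miR-542-3p were called lower, miR-351-5p was called higher at 2.40 (1389 to 3339 CPM), and miR-503-5p at 0.616, miR-322-5p at 0.602 and miR-450a-5p at 0.542 were not called. miR-322 belongs to the miR-16 family, which is known to restrain cyclin D and CDC25A. Of the family's 7 compared arms miR-322-3p alone was called, against 27.9% of all 215 arms. That arm carries another seed, and none of the 6 arms with the family seed AGCAGCA was called. The family's main arm, miR-16-5p, was at 16047 and 14017 CPM, a ratio of 0.874, and miR-15b-5p, from an intron of the condensin gene Smc4, was at 1.10. miR-16-5p has 2 hairpins, of which 1 lies in that intron. The Sfmbt2 intron gave 10 arms, of which 4 were called lower and none higher, against 17.7% lower and 10.2% higher over all 215 arms, with a median log2 ratio of −0.73. All 10 had under 100 reads at 20 h and were admitted through the deeper 16 h library alone. That choice favours ratios below 1, so the split is not comparable with that of all arms.

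The imprinted Dlk1-Dio3 region on chr12, whose miRNAs are expressed from the maternal copy, gave 48 compared arms of 77 seen. Their summed level hardly differed, at 61284 and 61595 CPM over all its arms, and 39 of the 48 were not called (27.9% of all 215 arms were called, 10.2% higher and 17.7% lower). The 5 higher arms were miR-667-3p, miR-485-3p, miR-369-5p, miR-433-3p and miR-409-3p (527 to 1111 CPM), and the 4 lower arms were miR-377-3p at 0.377, miR-136-5p at 0.468 (1783 to 835 CPM), miR-369-3p at 0.482 and miR-329-5p at 0.496. Of the region's 5 most abundant arms, miR-127-3p was at 0.928 (12227 and 11341 CPM), miR-541-5p at 1.02 (6088 and 6233 CPM), miR-411-5p at 0.612 (6057 and 3706 CPM), miR-411-3p at 1.17 and miR-379-5p at 0.550 (3612 and 1987 CPM). Its median log2 ratio of −0.10 turned to 0.09 with reads scaled to the miRNA total.

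Calls in the let-7, miR-29 and miR-30 families were all lower except let-7d-3p. Over all 215 arms, 17.7% were called lower and 10.2% higher. Of the let-7 family, which holds growth genes in check, 10 arms were compared. Its 9 arms with the seed GAGGUAG all lay below 1, from let-7g-5p at 0.461 to let-7b-5p at 0.638, and 2 passed the 2-fold line (let-7g-5p and miR-98-5p at 0.499). With reads scaled to the miRNA total those came to 0.525 and 0.568, and with the GC trend removed to 0.671 and 0.869, so neither was called. Its level summed over all arms went from 153656 to 89276 CPM. The tenth arm was let-7d-3p, which carries another seed. Of 5 miR-29 arms miR-29b-3p was called lower, although it shares a seed with miR-29a-3p at 0.989. That call was lost with miRNA totals (0.567), median-of-ratios scaling (0.512), the whole mature sequence (0.613) and the GC trend removed (0.771). In the miR-30 family 3 of 8 arms were called lower (miR-30a-5p at 0.347, miR-30c-2-3p at 0.239 and miR-30e-3p at 0.373), none was called higher, and miR-30d-5p stood at 1.71 with the same seed as miR-30a-5p.

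In the p53-linked miR-34 family, 5 arms were compared, 1 was called higher and 2 lower, against 10.2% and 17.7% of all 215 arms. The 3 arms with the seed GGCAGUG were miR-34b-5p at 0.279 (684 to 191 CPM) and miR-34a-5p at 0.472 (635 to 299 CPM), both called lower, and miR-34c-5p at 0.545 (1522 to 830 CPM), which was not called. Of the 3p arms miR-34b-3p was called higher at 2.09 (272 to 567 CPM), and miR-34c-3p at 1.71 (183 to 313 CPM) was not called. Counted by the whole mature sequence, miR-34b-3p came to 1.52 and miR-34a-5p to 0.719, and neither was called.

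Lists with few or no calls are set beside all 215 arms, of which 27.9% were called (10.2% higher and 17.7% lower). They included the fibroblast arms (0 higher, 1 lower, 11 uncalled), the clusters of miR-23, miR-24 and miR-27 (7 uncalled) and the miR-181 family (3 uncalled). The list of miR-125, miR-99 and miR-100 had 7 uncalled arms and a median log2 ratio of 0.37, with the miR-125 exceptions under total scaling given above. miR-221-3p and miR-222-3p, known to lower the inhibitor p27, were at 1.10 and 1.06, and miR-221-5p was called lower at 0.381 on 11 reads at 20 h. Of 6 compared arms in the list of serum-responsive miRNAs, miR-21a-3p was called lower (0.373), and miR-155-5p at 1713 and 1329 CPM and miR-31-5p at 1501 and 880 CPM were not called. Among 10 miRNAs linked to p21, cyclins or checkpoints, 6 arms were compared and none was called, with miR-421-3p at 1.94 next to the threshold. In the muscle list, miR-206-3p was called lower (228 to 86.2 CPM, 0.378), while miR-1a-3p had 10 reads at 16 h and 21 at 20 h. In the neural list, miR-128-3p at 1.29 was not called, beside miR-9-5p. The part of other cell types in these values was not tested.

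Both arms of a hairpin come from the same precursor and the same library, so their ratio needs no scaling. It was taken for the 41 hairpins with at least 20 reads of each arm in each library. In 18 of 41 (43.9%) the 3p to 5p ratio differed at least 2-fold with an interval excluding 1. It was higher at 20 h in 15 of them (36.6% of the 41). Among the 13 hairpins with at least 100 reads of each arm, 3 were higher and 2 lower by that rule, so the skew rests on the lower minimum. For let-7d, 520 reads of the 3p arm stood beside 11059 of the 5p arm at 16 h, and 571 beside 1496 at 20 h, a change of 8.12 (7.11 to 9.27). The 3p to 5p ratio of let-7d was thus 0.0470 at 16 h and 0.382 at 20 h, and it was 0.486 at 12 h and 0.357 at 24 h. The 16 h library stood apart from the other 3 released libraries.

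let-7e, miR-324 and miR-151 were likewise lowest at 16 h among those 4 libraries, with miR-324 at 7.46, 0.347, 1.65 and 2.06 at 12, 16, 20 and 24 h. miR-34b went from 0.397 to 2.98 in its 3p to 5p ratio, a change of 7.49 (5.07 to 11.2), with 2.81 at 12 h and 0.634 at 24 h. miR-574 went from 0.764 to 5.79, 7.58 (4.76 to 12.5), but was at 0.617 at 12 h and 0.379 at 24 h, so here the 20 h library was the one apart. The largest change was that of let-7b, 10.7 (5.91 to 19.7), on 20 reads of the 3p arm at 16 h and 32 at 20 h. At 12 h its 3p arm had 0 reads beside 5307 of the 5p arm. miR-34a changed by 7.42 (3.83 to 14.2) on 28 and 23 reads of its 3p arm. That arm had 0 reads at 12 h and at 24 h, beside 42 and 24 of the 5p arm, so 16 h was not its lowest library.

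In 3 hairpins (7.32%) the ratio was lower at 20 h. For miR-369, 610 reads of the 3p arm and 284 of the 5p arm at 16 h gave a 3p to 5p ratio of 2.15, and at 20 h, with 69 reads of the 3p arm, it was 0.311, a change of 0.145 (0.105 to 0.198). Its ratio was 0.626 at 12 h and 0.711 at 24 h, below 1 as at 20 h. miR-193a, at 0.295 (0.229 to 0.382), and miR-296, at 0.355 (0.260 to 0.486), were the others. miR-28a at 0.504 and miR-380 at 0.550 came next and did not reach 2-fold.

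**Figure D3:**
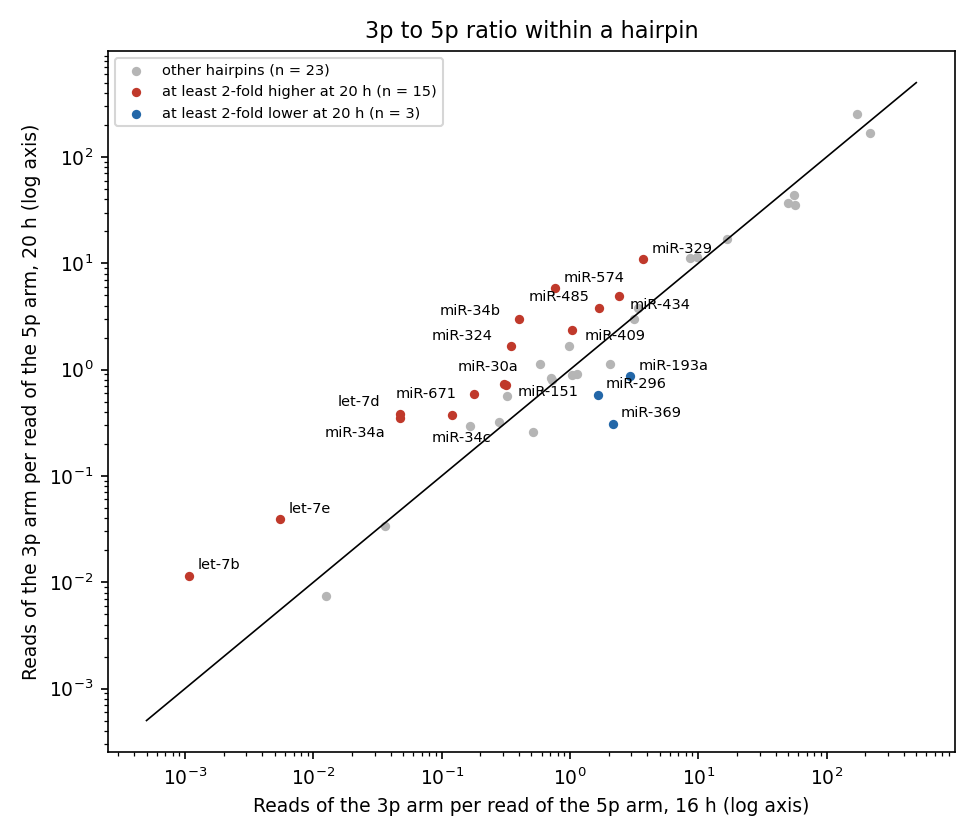
Reads of the 3p arm per read of the 5p arm at 16 h (x axis) and 20 h (y axis) for 41 hairpins, on log axes; the line marks no change. The 15 hairpins in red lie above the line and the 3 in blue (miR-193a, miR-296 and miR-369) below it, with let-7d at 0.0470 and 0.382.

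The ratio of 20 h to 16 h moved with base composition. Across the 215 arms, which come from the same 2 libraries of unequal depth, Pearson's r between log2 ratio and GC content was 0.55 and Spearman's rho 0.52, with a slope of 0.57 log2 units per 10 percentage points of GC. Taken singly, Pearson's r was 0.54 with C content, −0.08 with G content and −0.03 with the length of the arm. Over the 125 arms with 100 or more reads in both libraries, r with GC content was 0.59. Arms under 40% GC numbered 44, of which 1 was called higher and 20 lower, with a median ratio of 0.558. The 20 arms at 60% GC or more had 9 called higher and none lower, with a median of 1.79. Between these, the 88 arms from 40% to under 50% had 2 higher and 11 lower, and the 63 arms from 50% to under 60% had 10 higher and 7 lower.

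The called arms differed accordingly. Median GC content was 57.1% in the 22 higher arms, 39.1% in the 38 lower arms and 45.5% over all 215. A run of 3 C bases (CCC), searched on the mature strand after the values had been seen, was present in 14 of the 22 higher arms, 1 of the 38 lower arms and 42 of all 215 (19.5%). It stands out in the printed sequences of miR-484, miR-296-5p and miR-331-3p. GC content was above 50% in 18 of the 22 higher arms, 62 of all 215 and 4 of the 38 lower arms, with a maximum of 59.1% among the lower. Exceptions to the trend among the higher arms included let-7d-3p at 50% GC, miR-369-5p and miR-34b-3p at 45.5% and miR-365-3p at 31.8%. Among the lower arms they included miR-93-5p at 52.2% and miR-30c-2-3p at 50%. With the straight-line trend removed, 33 of the 60 called arms kept their call, 10 higher and 23 lower. let-7d-3p then had a ratio of 3.95, miR-365-3p 3.57, miR-484 2.53, miR-20a-5p 0.342 and miR-33-5p 0.136, while miR-92a-3p came to 1.29. The part of base composition in the other calls was not tested beyond this.

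Within hairpins the same comparison was less close. The arm richer in GC gained in 24 of all 41 hairpins and in 12 of the 18 that changed at least 2-fold. Between the log2 change and the difference in GC, r was 0.41 over the 41. Over the 13 hairpins with at least 100 reads of each arm, r was 0.14 and the GC-richer arm gained in 7. The miR-34a hairpin changed 7.42-fold toward its 3p arm although that arm has the lower GC content, 42.9% against 50%. The change rests on 28 reads of the 3p arm at 16 h and 23 at 20 h.

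**Figure D4:**
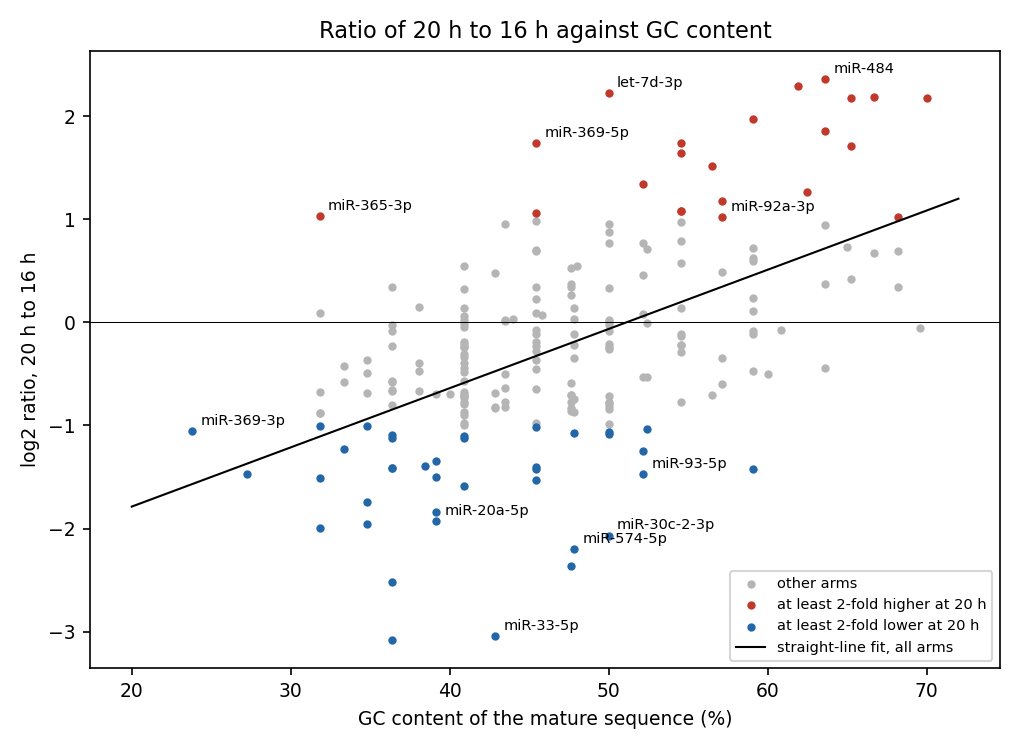
The log2 ratio of 20 h to 16 h against the GC content of the mature sequence (percent) for 215 arms, with a straight-line fit; red and blue mark arms called higher and lower. The fit rises by 0.57 per 10 percentage points, and let-7d-3p and miR-365-3p lie far above it and miR-33-5p far below.

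The neighbouring steps share a library with this one and are set beside it for that reason only. From 12 h to 16 h, 219 arms met the minimum, and 109 were called (49.8%), 75 higher (34.2%) and 34 lower (15.5%). From 20 h to 24 h, 127 arms did and 11 were called (8.66%), 5 higher (3.94%) and 6 lower (4.72%). The slope on GC content was −0.65 from 12 h to 16 h, 0.57 from 16 h to 20 h and −0.10 from 20 h to 24 h, per 10 percentage points, over 190, 215 and 127 arms, since 29 arms at a count of 0 in 1 library were left out of the first, and it had opposite signs on either side of the 16 h library.

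The called arms were chosen for their difference between 16 h and 20 h, so their place at 16 h is partly fixed by that choice, and the counts here are a description. Among the 4 libraries collected after serum, 16 h was the lowest for 21 of the 22 higher arms and for 42 of all 215, and miR-34b-3p was lowest at 24 h. miR-484 was at 4515, 1167, 6002 and 3369 CPM at 12, 16, 20 and 24 h, and let-7d-3p at 3089, 554, 2590 and 4008 CPM. At 12 h, 20 of the 22 were within 2-fold of their level at 20 h, as were most of all 215 arms. At 24 h, 20 of the 22 were within 2-fold of it, against 176 of all 215 arms. The 38 lower arms had 18 within 2-fold of the 20 h level at 12 h and 19 at 24 h. Before serum, at 0 h, miR-484 was at 1309 CPM and let-7d-3p at 688 CPM, near their levels at 16 h.

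Of the 38 lower arms, 29 were highest at 16 h among those 4 libraries, against 102 of all 215 arms, and 11 were lowest at 20 h, against 32 of all 215. miR-20a-5p was at 326, 1833, 481 and 735 CPM at 12, 16, 20 and 24 h. miR-33-5p was at 3.70, 486, 59.0 and 109 CPM, after 1248 CPM at 0 h. For 12 of the 38 arms no read was found at 12 h, against 28 of all 215 arms. In that library 3 counts, the upper limit that a count of 0 allows, equal 11.1 CPM. The 3.70 CPM of miR-33-5p there lay under that limit, so its distance from the 16 h level is poorly measured. One of the 12 arms was miR-9-5p, at 624 CPM at 16 h. miR-574-5p took another course, at 985, 501, 109 and 350 CPM, and was lowest at 20 h. The differing depth and marker-oligonucleotide share of the 16 h library and the labelled phase cannot be told apart with 1 library per time.

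**Figure D5:**
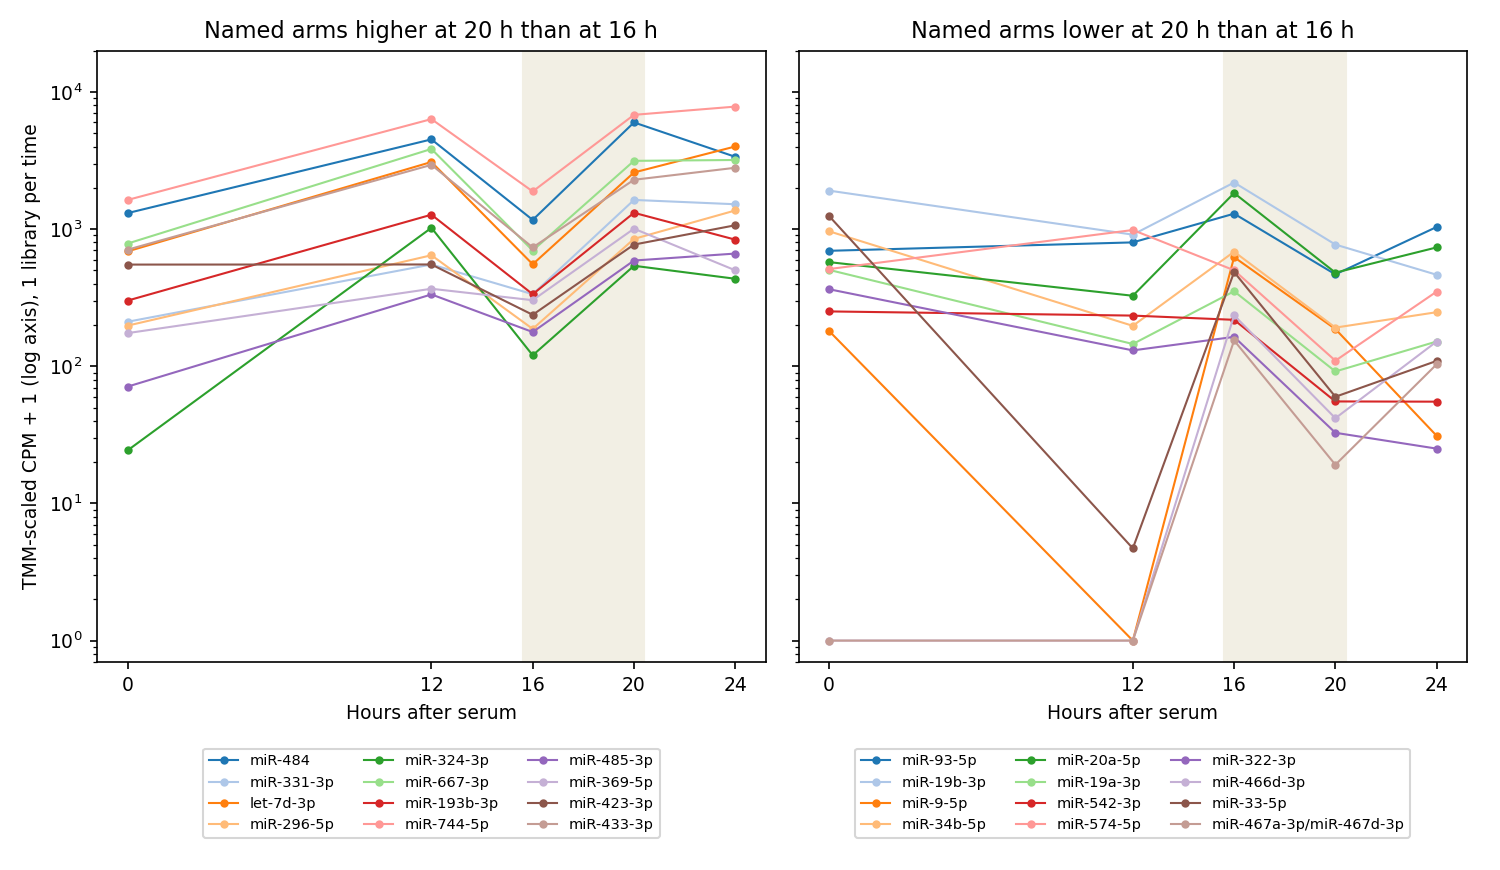
Level (TMM-scaled CPM plus 1, log axis) of the 12 named arms higher at 20 h (left) and the 12 lower at 20 h (right) in the libraries at 0, 12, 16, 20 and 24 h after serum, 1 library per time; the shaded band marks the step from 16 h to 20 h. The arms on the left dip at 16 h, as miR-484 from 4515 to 1167 CPM, and most on the right peak there, as miR-20a-5p at 1833 CPM.

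Insert lengths did not differ to the same degree. The mean length of miRNA inserts was 22.1 nt in both libraries. miR-484 inserts averaged 22.4 nt in both, and let-7d-3p inserts 21.9 nt. Among called arms with over 100 reads in each library, miR-20a-5p inserts were 23.1 nt at 16 h and 23.4 nt at 20 h, and miR-351-5p inserts 23.3 nt and 22.7 nt.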

How the data were processed

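Per the labels, total RNA from NIH-3T3 cells was made into small-RNA libraries by an earlier protocol. The deposited files give distinct 36-nt reads and the count of each, 3′ adapter included. Which read filters or aligner the authors used is not given in the sources used here. Python 3.11.15 was used with pandas 2.3.3, scipy 1.17.1 and numpy 2.4.6. The adapter was removed where 6 or more of its bases were seen (1 mismatch per 8 bases), and marker-oligonucleotide reads (12 shared bases, or within 3 edits by edlib 1.3.9.post1) and inserts outside 16 to 30 nt were dropped. Inserts were counted for an arm by their first 20 nt, over 1673 RefSeq arms and 62 arms defined by reads on hairpins without a mature RefSeq entry (hairpins from RefSeq and GENCODE M21, build GRCm38). TMM factors came from edgeR 4.0.16 (R 4.3.3) over 8 libraries, 1.06 at 16 h and 1.20 at 20 h. No test was run across arms. Ratio intervals are 95% exact conditional binomial and were checked on simulated counts. Arm-ratio intervals are exact conditional odds ratios and were not checked in that way.

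Named arms were the 12 highest and 12 lowest called arms by the bound nearer 1, the 10 most abundant, list members and the 5 largest arm-ratio changes each way. Other arms are named where a count of calls, a cluster, a seed or a neighbour of the threshold calls for it, chosen after their values were seen. Members and lists were chosen with earlier results of these data known. Alternatives were other scalings, key lengths, insert lengths, read minimums and folds. Arms of chromosome 18 are given by value only.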

Additional observations from a re-analysis of the deposited data

How the results depend on the processing

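The scalings tried (miRNA totals, TMM between the 2 libraries, median of ratios) each multiply every ratio by the same factor. The shifts were too small for a called arm to change direction, so its direction is no check. Of the 60 called arms, 48, 60 and 56 kept their call in that order. The count of 60 called arms came to between 43 and 77 under these scalings, an 18-nt key, the whole mature sequence, inserts of 20 to 24 nt, a minimum of 50 reads, an equal CPM minimum, RefSeq arms only or removal of the GC trend. The number of arms compared changed with the setting. As a share of it, the calls came to between 21.9% and 30.1%, against 27.9%. The count was 29 of 123 arms (23.6%) with a minimum of 500 reads (10 higher, 19 lower). It was 32 of 215 (14.9%) with the interval wholly beyond 2-fold (15 higher, 17 lower). At 1.5-fold it was 122 of 215 (40 higher, 82 lower, 56.7% of arms). With at least 100 reads in both libraries it was 32 of 125 (25.6%, 20 higher and 12 lower). That setting, RefSeq arms only and removal of the GC trend from each arm were chosen after seeing the data. The whole mature sequence as key gave 12 higher arms of 161 (7.45%) and removal of the GC trend 12 of 215 (5.58%), against 10.2%. The equal CPM minimum gave 23 lower arms of 146 (15.8%), against 17.7%. Against main ratios below 1, miR-369-3p came to 1.16 with the GC trend removed and miR-101a-3p to 1.56 with the whole mature sequence. miR-328-3p came to 0.830 with the GC trend removed. With 100 or more reads of each arm, 5 of 13 hairpins changed at least 2-fold in 3p to 5p ratio, 3 higher and 2 lower at 20 h. No paired analysis was possible because each time has 1 library. Depth at 20 h limits the lower arms, since 90 compared arms had under 100 reads there.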
